A study of Oryza sativa with 4 samples.

Results

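Broad regions of stable width are stretches of rice leaf chromatin where the H4K5ac peak was 1000 bp or wider in well-watered plants and whose width in drought-stressed plants was 0.9 to 1.1 times as large. They were taken from 1-to-1 pairs, in which a well-watered and a drought-stressed peak overlapped each other by at least 1 bp and overlapped no other peak, on chromosomes 1 to 12. There were 1225 such regions among 23644 pairs, drawn from 28883 well-watered and 26147 drought-stressed peaks. The widths of both lists chose the members, so all widths, ratios and end shifts below are a description and carry no test. The ratio is always drought-stressed over well-watered width. Coordinates are those of the well-watered peak, 1-based, on the build of the lists, which is not given in the sources used here, and no gene was assigned.

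The peaks come from chromatin immunoprecipitation and sequencing with an antibody against histone H4K5ac, done on leaves that were sampled at the grain filling stage from Hanyou73, a hybrid rice cultivar. The well-watered group and the drought-stressed group had 2 samples each, with no other treatment or genotype named, and the labels do not say whether samples of a group came from separate plants. Each group is held as 1 peak list with no value per sample, so there is no replicate error and no p-value. Chromatin had been sheared to fragments of 200 to 600 bp, which is longer than most of the end shifts reported here. Peak width moves with read depth and enrichment, which are unknown.

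Acetylation of histone H4 removes the positive charge of a lysine in the histone tail, which loosens its hold on DNA and offers a binding surface to bromodomain proteins. Lysine 5 is acetylated on newly made histones and, in chromatin, by histone acetyltransferases that act around transcribed genes. The mark is taken off by histone deacetylases. A broad peak can span several neighbouring nucleosomes, whereas the narrowest peaks are close to the length of DNA wrapped by a single one.

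Peaks this broad were the upper end of the lists. Of 28794 well-watered peaks on the numbered chromosomes, 2743 (9.53%) reached 1000 bp, and 1576 of 26063 drought-stressed peaks (6.05%) did. Among the 2743 broad well-watered peaks, 2389 formed a 1-to-1 pair, 322 lay over 2 or more drought-stressed peaks, 22 met no drought-stressed peak, and 10 met a drought-stressed peak that also met another well-watered peak. The 1225 members made up 51.3% of the 2389 broad pairs (95% interval 49.3% to 53.3%). Over all 23644 pairs, 45.6% had a ratio from 0.9 to 1.1, and among pairs under 1000 bp 44.9% did. Of the other broad pairs, 1129 had a ratio under 0.9 (47.3%, against 44.5% of all pairs and 44.2% of those under 1000 bp) and 35 had a ratio over 1.1 (1.47%, against 9.92% and 10.9%). A minimum on the well-watered width by construction keeps pairs that narrowed below it and drops pairs that widened past it, which shapes these shares. From 1000 to 1200 bp of well-watered width, 744 of 1472 pairs were under 0.9 and 23 over 1.1. By the mean of both widths, 379 of 1093 were under and 47 over.

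The members were mostly little above the width limit. Their median well-watered width was 1166 bp, with quartiles of 1067 and 1321 bp and a largest value of 5149 bp. Their median drought-stressed width was 1131 bp (quartiles 1030 and 1288 bp, lowest 901 bp, highest 5337 bp), and 1029 of the 1225 (84%) were still 1000 bp or wider under drought. Together they covered 1.52 Mb in the well-watered list and 1.47 Mb in the drought-stressed list, which was 8.60% and 9.84% of the length covered by each list. The broad pairs under 0.9 covered 1.35 Mb and 1.02 Mb.

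Within the allowed band the members were not centred on equal width. The median ratio was 0.962 (quartiles 0.933 and 0.997), and 936 members (76.4%) were narrower in the drought-stressed list, 284 were wider and 5 had the same width to the base. The median width change was -45 bp, from -173 to 188 bp. Beside them, broad pairs under 0.9 had a median width change of -233 bp and the 35 pairs over 1.1 one of 159 bp. Stable here therefore means a change of at most 0.1 of the width either way, and most members were on the losing side. This lean was not particular to the members. Of all 2389 broad pairs, 2065 (86.4%) were narrower under drought, and of all 23644 pairs only 5720 (24.2%) were wider.

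**Figure D1:**
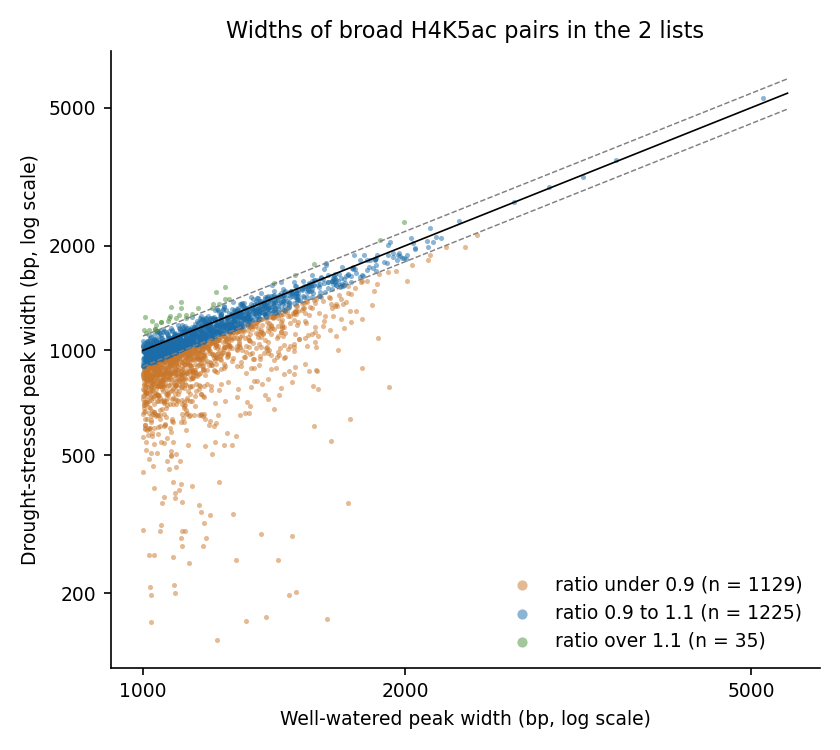
Well-watered width (x axis, bp, log scale) against drought-stressed width (y axis, bp, log scale) of the 2389 broad pairs, 1 point per pair. The solid line is equal width and the dashed lines are ratios of 0.9 and 1.1. The 1225 members lie between the dashed lines, most of them below the solid one, and run without a break into the 1129 pairs under 0.9.

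The values at the limits show how close the neighbours on either side were. Just inside 0.9 were chr8:24335818-24336978, 1161 bp wide and 1045 bp under drought, and chr1:16435689-16436709, with 1021 and 919 bp. Just outside were chr11:11693232-11694410, with 1179 and 1061 bp, and chr3:4014491-4016028, with 1538 and 1384 bp. The highest ratios kept were 1.098 at chr4:25122055-25123193 (1139 and 1251 bp) and chr5:27403160-27404781 (1622 and 1781 bp). The lowest left out were 1.1004 at chr7:7139991-7141026 (1036 and 1140 bp) and 1.102 at chr9:22561039-22562238 (1200 and 1322 bp). At the width limit, chr2:17039962-17040961 and chr2:29026617-29027616 were among 3 members of exactly 1000 bp. The pairs chr12:7919470-7920468 and chr12:13113516-13114514 had ratios of 0.955 and 0.907 but fell 1 bp short of it.

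The ends of the members moved by much less than the length of a sheared fragment. The median shift under drought, with negative values inward and positive values outward, was -15 bp at the left end (quartiles -42 and 7 bp) and -21 bp at the right end (quartiles -51 and 3 bp), left and right being taken along the chromosome numbering. Regardless of direction, the median displacement was 27 bp at the left and 31 bp at the right. Both ends stayed within 25 bp in 243 members (19.8%), 1 end did in 621 (50.7%), and neither in 361 (29.5%). Both stayed within 50 bp in 610 members (49.8%). An end moved by 100 bp or more in 132 members (10.8%), and like widths did not always come with like positions. Over all 2389 broad pairs, both ends stayed within 25 bp in 10.2%, 1 end in 44.5% and neither in 45.3%. Both stayed within 50 bp in 25.5%, and an end moved by 100 bp or more in 49.2%. A broad pair outside the ratio limits changed width by more than 100 bp, so by construction its ends could not both stay within 50 bp.

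Direction split the members into kinds. Both ends moved inward in 560 members (45.7%), with a median ratio of 0.940. In 523 members (42.7%) both ends moved the same way along the chromosome, 288 to the left and 235 to the right, so that the region slid with a median ratio of 0.986 and a median midpoint shift of 39 bp. Both ends moved outward in 86 members (7.02%), with a median ratio of 1.04. The remaining 56 members had at least 1 end at the same base in both lists. Over all 2389 broad pairs, both ends moved inward in 60.7%, the same way in 31.8% and outward in 4.19%. The ratio limits bound the net change of width, so the shares among members are shaped by the rule. The midpoint of a member stayed within 25 bp in 689 of 1225 (56.2%), and the part shared by both peaks was a median of 94.2% of their union (quartiles 91.8% and 96.5%, lowest 66.4%).

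**Figure D2:**
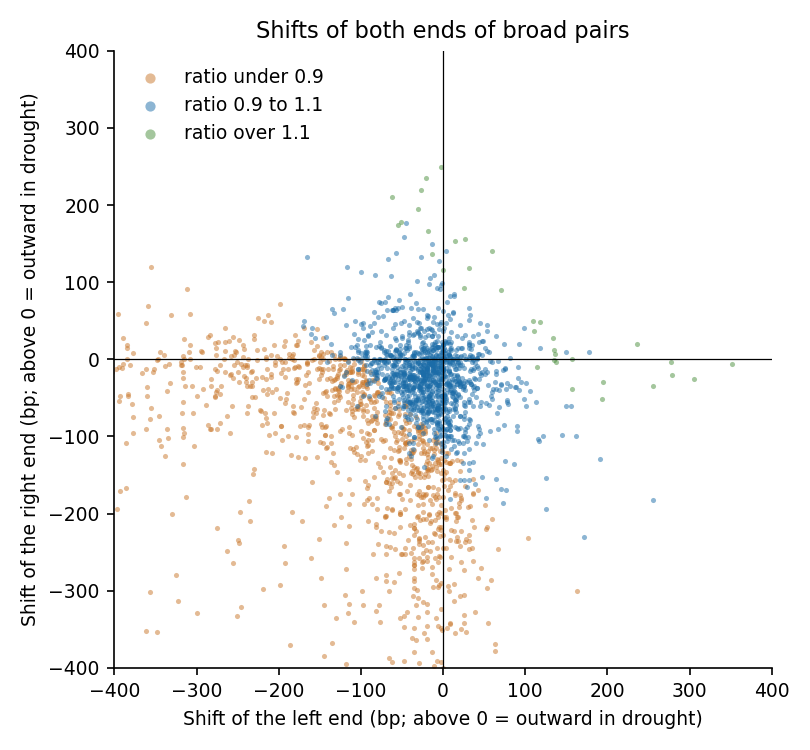
Shift of the left end (x axis, bp) against shift of the right end (y axis, bp) of the broad pairs, with values above 0 outward under drought. The members form a cloud around 0 that extends into all 4 quadrants. Most pairs under 0.9, 889 of 1129, lie in the quadrant where both ends moved inward. The 158 pairs with a shift beyond 400 bp, none of them a member, lie outside the axes.

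In most of the narrower broad pairs both ends moved. Among the 1129 pairs under 0.9, both ends moved inward in 889 (78.7%), and neither stayed within 25 bp in 704 (62.4%). Exactly 1 end stayed within 25 bp in 425 (37.6%), beside 50.7% of members and 44.5% of all broad pairs. Their median shifts were -97 bp at the left and -106 bp at the right. Their midpoint moved by 100 bp or more in 474 (42.0%), and that of 28 members did (2.29%). Over all 2389 broad pairs the shifts of the left and right end were nearly unrelated (Pearson r = -0.02, Spearman rho = -0.07, across regions that share the same pair of lists). The coefficients among the members alone, -0.33 and -0.25, are shaped by the ratio limits.

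The members with the smallest summed shift kept their ends to the base or nearly so. At chr9:490299-491418 the peak was 1120 bp wide and 1121 bp under drought, with the same left end and the right end 1 bp further out. At chr3:8736881-8738159 both ends lay 1 bp further out under drought, on widths of 1279 and 1281 bp. At chr7:3572915-3573916 the left end was the same and the right end 2 bp further out. At the opposite extreme, 3 members slid. The peak at chr6:6716225-6717522 moved 256 bp outward at the left and 182 bp inward at the right, a midpoint shift of 219 bp to the left, and its width went from 1298 to 1372 bp. The midpoints of chr2:28422207-28423231 and chr1:14512482-14513787 moved by 201 and 160 bp, also to the left. In these 3 the width was within the limits while the position moved.

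The share of pairs with a ratio from 0.9 to 1.1 was higher in broader classes when pairs were sorted by the mean of both widths. It was 32.4% below 400 bp, 49.3% from 600 to 800 bp, 61.0% from 1000 to 1200 bp, 66.4% from 1200 to 1500 bp and 78.3% (95% interval 71.1% to 84.1%) from 1500 to 2000 bp. Over the classes from 600 to 2000 bp the median width change lay between -62 and -73 bp, which is a smaller part of a broader region. Sorting by the well-watered width alone places pairs that were wide in that list only in the upper classes. The share was then 36.1% below 400 bp and 44.6% from 400 to 600 bp. It was 49.2% from 600 to 800 bp and 46.8% from 800 to 1000 bp. Above that it was 47.9% from 1000 to 1200 bp, 55.6% from 1200 to 1500 bp and 58.3% in the class up to 2000 bp. The class from 1000 to 1200 bp, which holds most members, was below that from 600 to 800 bp and above the other narrower classes. The limit on a ratio thus admits larger shifts in broader regions.

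**Figure D3:**
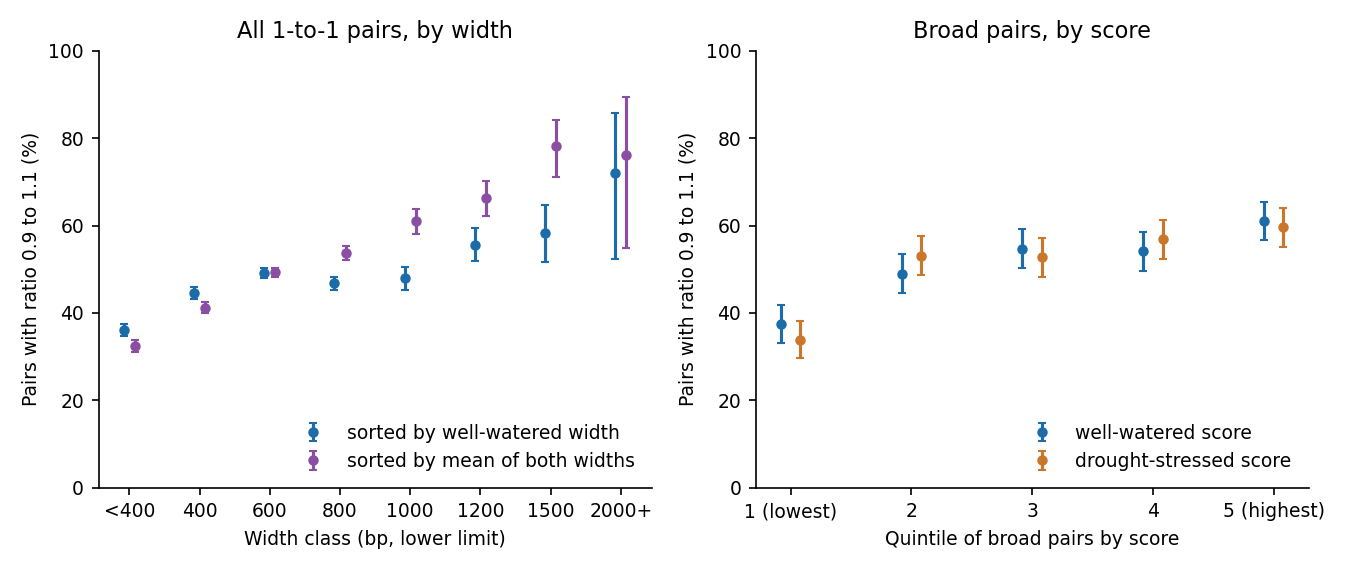
Share of pairs with a ratio from 0.9 to 1.1 (y axis, %), by width class of all 1-to-1 pairs (left, x axis in bp, sorted by well-watered width or by the mean of both widths) and by quintile of the broad pairs in score (right, each list by its own score). Points are shares and bars are Wilson 95% intervals. By mean width the share runs from 32.4% to 78.3% before the few pairs of 2000 bp or more, and by score it is lowest in the lowest quintile.

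Most of the longest broad pairs were members. Of the 25 broad pairs of 2000 bp or more in the well-watered list, 18 (72.0%, 95% interval 52.4% to 85.7%) were members, and 7 of these 18 were wider under drought, against 277 of the 1207 shorter members. The broadest was chr12:20464853-20470001, with 5149 bp against 5337 bp under drought, its left end 178 bp and its right end 10 bp further out. Next came chr9:13609115-13612605 with 3491 and 3532 bp, chr6:15084217-15087417 with 3201 and 3156 bp, chr12:20646527-20649451 with 2925 and 2959 bp, and chr1:33546729-33549398 with 2670 and 2682 bp. In these last 4 no end moved by more than 40 bp.

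The pairs around the 5 broadest members had median well-watered widths of 168 to 766 bp. Around the peak at chr12:20646527-20649451, 15 pairs had their midpoint within 50 kb. Their median width was 202 bp in the well-watered list, and 12 of them were wider under drought. Around chr1:33546729-33549398, 7 of 8 such pairs were wider (median width 291.5 bp), around the 5149 bp peak 3 of 3 were, and around chr6:15084217-15087417 the only one was. Around chr9:13609115-13612605, 1 of 9 was wider. Throughout the lists, narrow pairs were wider under drought more often than all pairs, of which 24.2% were. Of the 4374 pairs with a well-watered width under 400 bp, 1980 (45.3%) were wider. A limit on the well-watered width alone by construction favours pairs that widened. When the mean of both widths was under 400 bp instead, the count was 1771 of 4917 (36.0%). The small counts around the broadest members are therefore given as a description. The pair nearest to a member of 2000 bp or more had a median ratio of 0.988, against 0.911 for the shorter members, on 18 and 1207 members. The scores of the long members were lower, with medians of 367 against 646 in the well-watered list and 275 against 479 in the drought-stressed list.

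Scores, the authors' value per peak, were higher in members than in other broad pairs within each list. The median was 642 (95% interval 609 to 680) for members and 521 (496 to 554) for the others in the well-watered list. In the drought-stressed list it was 476 (448 to 496) and 374 (352 to 393). The contrast was not limited to broad pairs. Pairs under 1000 bp within the same ratio limits had median scores of 700 (well-watered list) and 516 (drought-stressed list). For all pairs under 1000 bp, these included, the medians were 523 and 384. Of the members, 941 (76.8%) scored above the median of all well-watered peaks, and 749 of the 1164 other broad pairs (64.3%) did. By quintiles of the well-watered score of broad pairs, the share of members was 37.4% in the lowest, 49.0% in the next and 61.1% in the highest. By the drought-stressed score it was 33.9% in the lowest quintile and 59.6% in the highest. Score and width come from the same signal, so the score is no independent support for a stable width.

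The top of the score order was the same in both lists for the first 5 members. It was led by chr10:5513283-5514400, which scored 43846 in the well-watered and 33172 in the drought-stressed list, with each end 10 bp further in under drought. The next was chr6:11799661-11800668 (40206 and 25936), whose ends moved by 2 and 3 bp. The third, chr10:5525996-5527088 (27498 and 16895), lay 11595 bp from the first, and its ends moved by 11 and 4 bp. Numbers 4 and 5 in that order, chr3:29209830-29210928 (9900 and 7404) and chr11:21342961-21344010 (8440 and 6110), kept 1 end within 3 bp and moved the other inward by 50 and 22 bp. All 5 measured between 1008 and 1118 bp in the well-watered list, near the lower width limit. No scale links the scores of one list to those of the other.

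Members and other broad pairs had median spacings whose intervals overlapped. The nearest well-watered peak lay a median of 5504 bp away from a member, edge to edge (95% interval 5218 to 5677 bp, quartiles 3439 and 8366 bp). For the other broad pairs it lay 5610.5 bp away (5429 to 5863 bp), and for pairs under 1000 bp 4092 bp away (4030 to 4165 bp). Another well-watered peak lay within 1 kb of 104 members (8.49%) and of 104 other broad pairs (8.93%). Measured among drought-stressed peaks, the medians were 5838 bp for members and 6236 bp for the others. In the surrounding 100 kb the median was 9 other well-watered peaks in both sets. The most isolated member, chr6:20578768-20579809, had 54154 bp free on the left and 55640 bp on the right, and the most closely flanked, chr12:1436955-1438004, had a well-watered peak 141 bp away. Their ratios, 0.944 and 0.965, lay between the quartiles of all members.

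End shifts were also set beside the gap that each end faced. Over all broad pairs, the median shift was -37 bp (95% interval -59 to -19 bp, 142 ends) where the next well-watered peak was less than 500 bp away and -36 bp (-40 to -33 bp, 1970 ends) where it was 10 kb away or more. For pairs under 0.9 alone the medians at these gaps were -164.5 bp (-251 to -95 bp, 70 ends) and -93.5 bp (-103 to -85 bp, 928 ends), and for members -10 bp (-15 to 0 bp, 70 ends) and -18 bp (-21 to -16 bp, 1007 ends). The members and the pairs under 0.9 were chosen by these shifts, so those medians are a description, and over all broad pairs the intervals of the near and far gaps overlapped.

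The pairs next to members were narrower under drought, as were those next to other broad pairs. The neighbours' widths were not used by the rule unless the neighbour was itself broad. The nearest other pair had a median ratio of 0.912 (95% interval 0.8996 to 0.9206) beside a member and 0.912 (0.903 to 0.922) beside another broad pair, and it was narrower under drought in 935 of 1225 (76.3%) and 912 of 1164 cases (78.4%). Where that nearest pair was under 1000 bp, it had a ratio from 0.9 to 1.1 in 468 of 1100 cases beside members (42.5%) and in 459 of 1044 beside the others (44.0%), and over all pairs under 1000 bp the share was 44.9%. Across the 2389 broad pairs, the ratio of a pair and that of its nearest pair had a Spearman rho of 0.01. A well-watered peak with no drought-stressed overlap lay within 5 kb of 118 members (9.63%, 95% interval 8.10% to 11.4%) and of 140 other broad pairs (12.0%, 10.3% to 14.0%).

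**Figure D4:**
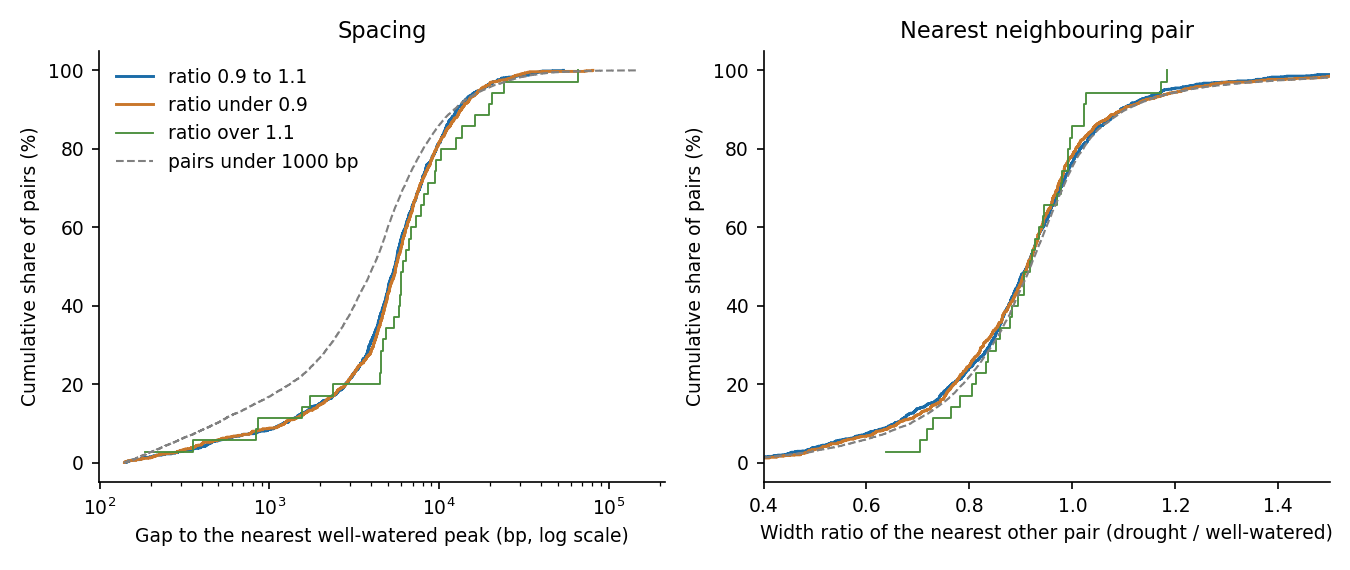
Cumulative share of pairs (y axis, %) by gap to the nearest well-watered peak (left, x axis in bp, log scale) and by width ratio of the nearest other pair (right, drought-stressed over well-watered, shown from 0.4 to 1.5). The curves of members and of pairs under 0.9 lie on each other in both panels, with medians of 5504 and 5574 bp and of 0.912 and 0.912, while pairs under 1000 bp have nearer neighbours.

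Along the chromosomes, a broad pair was followed by a member about as often whatever it was itself. After a member, the next broad pair was a member in 632 of 1218 cases (51.9%, 95% interval 49.1% to 54.7%). After another broad pair it was in 585 of 1159 (50.5%, 47.6% to 53.3%). Within 20 kb the shares were 84 of 164 (51.2%) and 90 of 181 (49.7%). Neighbouring members lay a median of 167 kb apart (quartiles 66.7 and 387 kb), and 37 of 1213 distances (3.05%) were under 10 kb. The closest were separated by 3341 bp, chr5:29542007-29545347, and the farthest by 4.60 Mb, chr4:13816942-18419647, a stretch with 168 well-watered peaks of which 8 were in broad pairs outside the ratio.

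The longest runs of broad pairs that were all members held 9, 9 and 8 regions. The first spanned chr6:6703601-7187836, with ratios of 0.936 to 1.06 on widths of 1084 to 1568 bp, and it holds the member with the largest midpoint shift. The second spanned chr12:132072-1318335, with ratios of 0.9004 to 1.03, and the third chr2:28972278-29466137, with ratios of 0.931 to 1.09. Another pair of runs on chromosome 2 also held 8. The pairs under 1000 bp inside the first 3 runs had a ratio from 0.9 to 1.1 in 14 of 30 (46.7%), 40 of 93 (43.0%) and 17 of 36 cases (47.2%), beside 44.9% of all pairs under 1000 bp.

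Members were found on all 12 numbered chromosomes. Their density was highest on chromosomes 3 (4.42 per Mb), 2 (4.37 per Mb) and 1 (4.07 per Mb) and lowest on chromosome 11 (2.10 per Mb). The density of all broad pairs was also highest on chromosome 3 (8.90 per Mb) and lowest on chromosome 11 (4.31 per Mb). As a share of broad pairs, members ranged from 42.0% on chromosome 7 (81 of 193, 95% interval 35.2% to 49.0%) to 56.1% on chromosome 2 (157 of 280, 50.2% to 61.8%). The interval of chromosome 7 ended below the share over all broad pairs, 51.3%, and those of the other 11 chromosomes contained it. Among 12 intervals of 95%, 1 such miss is not unusual, and no difference between chromosomes was tested. The megabase with the most members, chromosome 2 from 5 to 6 Mb, held 12 among 17 broad pairs and 123 well-watered peaks.

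Within chromosomes the intervals of the median position overlapped as well. Their median distance from the nearer chromosome end was 19.1% of the chromosome (95% interval 17.8% to 20.4%), against 21.0% (19.7% to 21.9%) for the others. Of the members, 342 (27.9%, 25.5% to 30.5%) lay within 10% of an end and 135 (11.02%) lay 40% or more from both ends, beside 282 (24.2%, 21.9% to 26.8%) and 156 (13.4%) of the others. With each chromosome cut into 10 equal parts, the share of members was highest in part 1, 151 of 260 broad pairs (58.1%, 52.0% to 63.9%), and lowest in part 5, 62 of 134 (46.3%, 38.0% to 54.7%). In part 10, at the far end, it was 191 of 364 (52.5%). The interval of part 1 lay above the 51.3% of all broad pairs, and those of the other parts contained it. No difference between parts was tested.

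**Figure D5:**
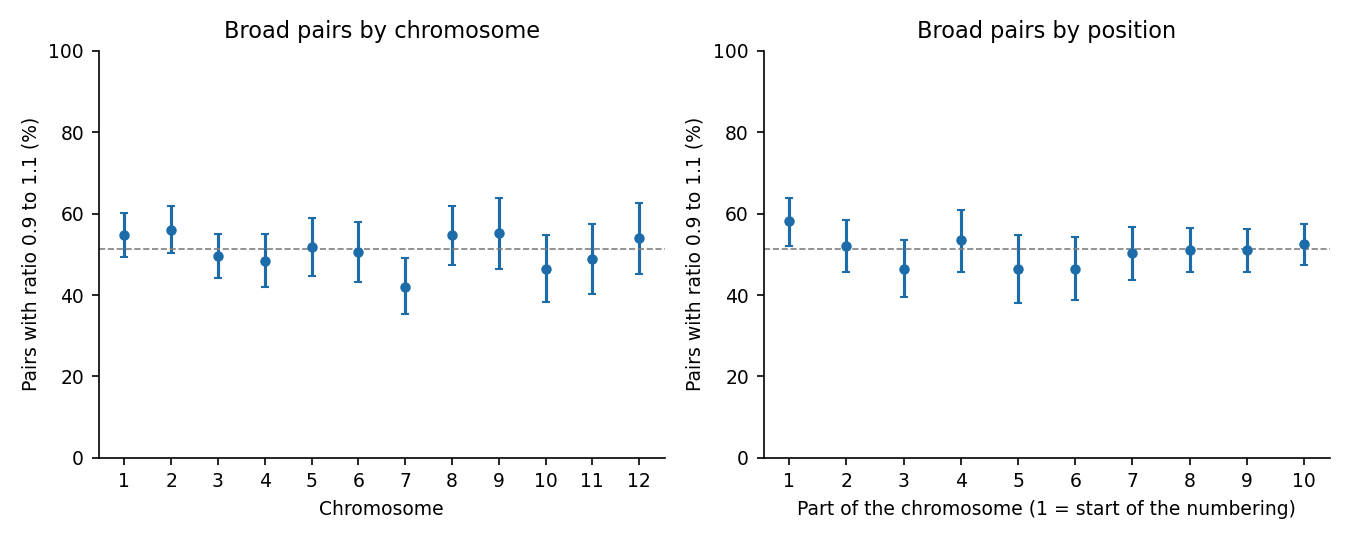
Share of broad pairs that were members (y axis, %) by chromosome (left) and by part of the chromosome along its numbering, from 1 to 10 (right). Points are shares, bars are Wilson 95% intervals and the dashed line is the 51.3% of all broad pairs. The share runs from 42.0% on chromosome 7 to 56.1% on chromosome 2 and from 46.3% to 58.1% over the parts.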

How the data were processed

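H4K5ac ChIP-seq was done on leaves of 2 well-watered and 2 drought-stressed rice samples. Per the labels, a condition's samples share 1 peak list. BWA, SAMtools, MACS2 and deepTools were used without stated versions, per the submitters' processing notes. Which build, control library and calling threshold were used is not given in the sources used here. The score is the authors' deposited value per peak, on a scale that is not stated, so it was used within 1 list only. The gene table at hand is of assembly ASM3414082v1 and was not used. Read depth is unknown.

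Pairs, end shifts, gaps and positions were computed with Python 3.11.15, numpy 2.4.6, pandas 2.3.3 and scipy 1.17.1. Each chromosome was taken to end with its last listed peak. All 23644 pairs were found again with bedtools 2.31.1, and the pairing was tested on simulated data. Intervals are 95% intervals, by the Wilson method for shares and from order statistics for medians. They cover counting error alone and treat peaks as independent. Differences of medians between members and other broad pairs were given a band only to label alternative runs. That band joined the opposite limits of the 2 separate intervals, so it is wider than a 95% interval of the difference.

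The members and all measures were chosen with earlier results of these data known. Regions were named by rank: the broadest, highest-scored, most and least shifted, most isolated and most closely flanked pairs, the longest runs, and the pairs nearest to each limit. The members of 2000 bp or more, the extreme windows, the runs outside the ratio and the fullest megabase were picked after their values were seen.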

Additional observations from a re-analysis of the deposited data

How the results depend on the processing

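The number of members, 1225, followed the limits of the rule. It was 3177 with a minimum width of 800 bp, 520 with 1200 bp, 695 with tighter ratio limits (0.05 either way), 1839 with looser ones (from 0.8 up to its inverse), and 800 with only peaks above the median score of their list. The share of broad pairs that were members, 51.3%, became 48.4% with a minimum of 800 bp, 56.7% with 1200 bp, 64.2% with the minimum set on the mean of both widths and 71.9% with it set on the drought-stressed width. By construction, a minimum on the well-watered width keeps pairs that narrowed below it and a minimum on the drought-stressed width drops them. The median left shift, -15 bp (negative is inward), became -10.5 bp with the minimum on the drought-stressed width, -6 bp with the tighter ratio limits and -24 bp with the looser ones. The median right shift, -21 bp, became -17 bp with a minimum of 800 bp and also with the minimum on the drought-stressed width, and -10 and -31 bp with the tighter and looser ratio limits. Both medians were inward in each alternative run. The other 38 alternatives, among them all those for spacing, density, position, neighbours and scores, left a value within its counting interval, or moved a count by less than 1.5 times. The alternatives that set the minimum on the mean width for these 5 comparisons were chosen after seeing the data. The tally includes runs that changed little of the input. Merging peaks under 100 bp apart, a reciprocal overlap of 50% and equal numbers of peaks left 1225 members and both median shifts as they were. No pair had a neighbouring peak closer than 140 bp (well-watered) or 146 bp (drought-stressed), so the merging had no pair to act on. For spacing, the difference of -106.5 bp became -398 bp in the drought-stressed list, within a wide band of -645 to 248 bp. No paired analysis was possible because the samples of a condition share 1 list, which also kept single samples from being left out. Depth is unknown, which limits the reading of shifts below the fragment length of 200 to 600 bp.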

Other observations

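Outside the numbered chromosomes, the unplaced sequences Un and Sy held 5 broad 1-to-1 pairs, 3 on Un and 2 on Sy. Each had a ratio from 0.9 to 1.1, with values of 0.949, 0.991 and 0.987 on Un and 0.919 and 0.915 on Sy, and well-watered widths of 1014 to 1195 bp.

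In 5 Mb windows with at least 20 broad pairs, the share of members had a median of 52.8% over 60 windows (quartiles 45.8% and 58.3%). It was lowest on chromosome 7 from 20 to 25 Mb, with 16 of 53 broad pairs (30.2%, Wilson 95% interval 19.5% to 43.5%), and highest on chromosome 9 from 10 to 15 Mb, with 19 of 24 (79.2%, 59.5% to 90.8%). The second of these windows holds the member of 3491 bp. Both windows are extremes of 60, and some of 60 intervals of 95% can miss the share over all broad pairs by counting error alone. No difference between windows was tested.

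The longest runs of broad pairs without a member were longer than the longest runs of members. These runs are extremes, and their length was not tested. Over all broad pairs, the next one was a member in 51.9% of cases after a member and in 50.5% after another broad pair. At chr1:29271342-30428391, 14 broad pairs in a row had ratios of 0.235 to 0.883, all under 0.9. At chr11:14014741-17204411, 13 in a row had ratios of 0.135 to 0.888. The pairs under 1000 bp inside these stretches had a ratio from 0.9 to 1.1 in 45 of 102 (44.1%) and 41 of 98 cases (41.8%), close to the 44.9% of all pairs under 1000 bp.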
